A study of Mus musculus with 8 samples.

Results

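Iron and heme handling in macrophages was followed through 10 genes, taken as the rows of the deposited gene count table that carry the names Slc40a1, Hmox1, Fth1, Ftl1, Tfrc, Slc11a1, Lcn2, Bach1, Ireb2 and Blvrb. They are 10 of 54532 genes in the table, and all 10 passed the filter on low counts that left 12234 genes for testing. Read counts came from bulk RNA sequencing of mouse bone marrow-derived macrophages (BMDMs), cells grown from bone marrow into macrophages. The control group had no stimulus. The LPS group had 4 h of lipopolysaccharide at 100 ng/ml, a component of the bacterial cell wall that activates macrophages by way of Tlr4. The IL-4 group had 24 h of the type 2 cytokine interleukin 4 at 20 ng/ml. The group called IL-4 then LPS had 24 h of IL-4 at 20 ng/ml, a wash, and 4 h of LPS at 100 ng/ml. Each of the 4 groups held 2 libraries, numbered 1 and 3 in the labels. Strain, sex, age and genotype of the mice, and whether a number stands for an animal, a pool or a culture, are not given in the sources used here. The p-values below therefore measure only the spread between these libraries.

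Macrophages take up iron as transferrin through the receptor Tfrc and as heme from engulfed red cells. Heme is opened by heme oxygenase 1 (Hmox1) into iron, carbon monoxide and biliverdin, which biliverdin reductases such as Blvrb reduce further. Freed iron is stored in ferritin, a shell of heavy (Fth1) and light (Ftl1) chains, or leaves the cell through ferroportin (Slc40a1), the only known iron exporter. Slc11a1 pumps metal ions out of the phagosome, and Lcn2 is a secreted protein that binds bacterial siderophores, so both withhold iron from microbes. Bach1 is a heme-sensing repressor of Hmox1, Slc40a1 and the ferritin genes, opposed by the activator NRF2 (Nfe2l2). Ireb2 encodes an iron regulatory protein that binds hairpins called iron-responsive elements in messenger RNA. Bound in the 5′ untranslated region (UTR) it blocks translation, and bound in the 3′ UTR of Tfrc it protects the transcript.

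The hairpins are shown because they mark which of the 10 transcripts carry the site that the Ireb2 protein binds. A single spliced GENCODE M21 transcript per gene (genome build mm10, also called GRCm38) was searched on the sense strand. The pattern was an unpaired C, a stem of 5 bases, the loop CAGUGN and 5 bases pairing back, with G-U pairs allowed. Each line below is 29 bases, 5′ to 3′, with the loop in capitals.
Slc40a1, 5′ UTR, chr1:45925465-45925493, minus strand: caacuucagcuaCAGUGUuagcuaaguuu
Fth1, 5′ UTR, chr19:9982732-9982760, plus strand: uuccugcuucaaCAGUGCuugaacggaac
Ftl1, 5′ UTR, chr7:45459779-45459807, minus strand: gucuugcuucaaCAGUGUuugaacggaac
Tfrc, 3′ UTR, chr16:32631219-32631247, plus strand: aauuaucggaagCAGUGCcuuccauaauu
Tfrc, 3′ UTR, chr16:32631598-32631626, plus strand: cauuaucgggagCAGUGUcuuccauaaug
Tfrc, 3′ UTR, chr16:32631663-32631691, plus strand: cuauaucggagaCAGUGAucuccauaugu
Tfrc, 3′ UTR, chr16:32631710-32631738, plus strand: aauuaucgggaaCAGUGUuucccauaauu

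Slc40a1, Fth1 and Ftl1 each held 1 match in the 5′ UTR, and Tfrc held 4 in the 3′ UTR. The Fth1 and Ftl1 matches started 16 and 84 bases into their UTRs and the Slc40a1 match 96 bases in. These positions hold for the searched transcripts only. That of Fth1 has 592 bases, against a deposited gene length of 866. Among all genes with an annotated UTR, 21 of 20552 (0.1022%) had a match in the 5′ UTR and 111 of 20677 (0.5368%) in the 3′ UTR. No match to these letters was found in the UTRs of the searched transcripts of Hmox1, Slc11a1, Lcn2, Bach1, Ireb2 and Blvrb. Read counts do not measure translation, so the effect of the 5′ sites on protein was not analysed here.

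**Figure D1:**
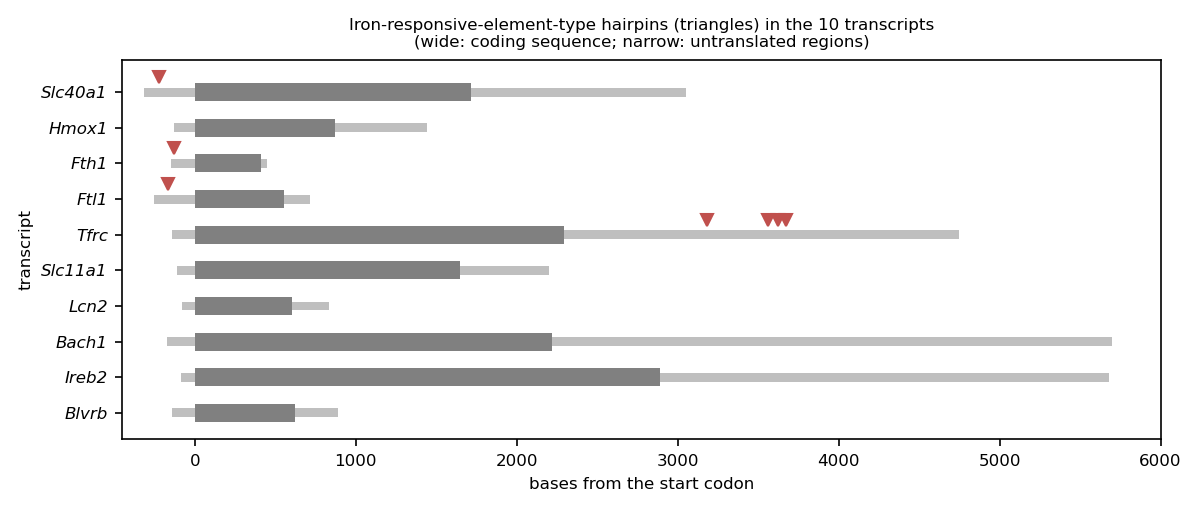
The searched transcript of each of the 10 genes, drawn to scale in bases from the start codon. Wide bars mark coding sequence, narrow bars UTRs and triangles hairpin matches. Slc40a1, Fth1 and Ftl1 have 1 triangle each before the coding sequence and Tfrc has 4 after it.

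Library totals ran from 7924932 to 9431852 reads. Levels are given as CPM, read counts brought to a common library total with TMM factors, which ran from 0.786 to 1.252. Macrophage markers such as Csf1r, Adgre1 and Cd68 were all detected, with a summed level over 8 markers of 12337 to 24945 CPM. Of 9 erythroid markers, which would accompany red cell precursors rich in heme genes, none had more than 10 reads over the 8 libraries, and Hbb-bs, Hbb-bt and Slc4a1 were among those without a read. Libraries numbered 1 held 2936 to 4465 Xist reads and no read of the Y-linked genes, and libraries numbered 3 held no Xist read and 1246 to 1546 Y-linked reads. In each group, therefore, the 2 libraries came from cells of different sex. In bulk RNA, fewer cells expressing a gene and less RNA per cell cannot be told apart.

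Per kilobase of gene length the 10 genes spanned a wide range in resting cells. Fth1 stood at 20203 ± 67.6 CPM per kilobase (SD, n = 2) and had the most reads of any gene in the table, 1.49% to 2.18% of each library. Ftl1 followed at 3527 ± 130 and ranked number 12 by reads. Hmox1 stood at 379 ± 211, Slc11a1 at 128 ± 5.26 and Blvrb at 64.8 ± 3.01 CPM per kilobase. Bach1 stood at 28.8 ± 0.859, Slc40a1 at 24.9 ± 20.6 and Ireb2 at 8.21 ± 1.35, and the spread of Slc40a1 took in both neighbours. Tfrc at 4.53 ± 0.206 and Lcn2 at 0.0566 ± 0.0800 closed the order. The lengths are those deposited with the counts, 9000 bases for Slc40a1 and 6179 for Bach1. The transcripts searched above have 3370 and 5867 bases, so the order of close genes depends on the length used.

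**Figure D2:**
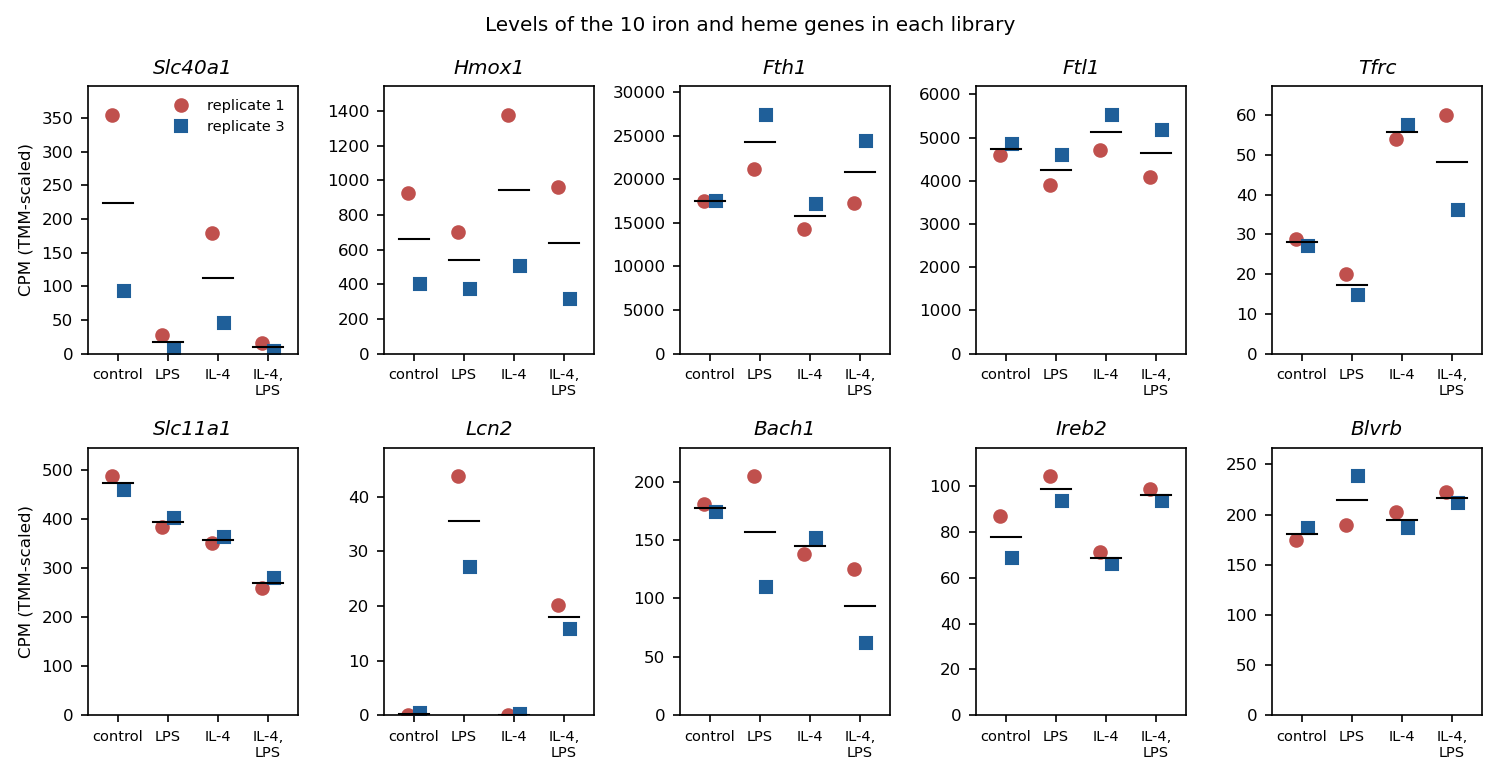
CPM of each gene in the 8 libraries, with circles for replicate 1, squares for replicate 3 and a bar at the group mean, each axis starting at 0. Slc40a1 was near the bottom of its axis in the LPS libraries and replicate 1 lay above replicate 3 in every group, while Tfrc was highest in the libraries that had received IL-4.

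After LPS the iron exporter Slc40a1 fell and the siderophore-binding Lcn2 rose. Neither the ferritin chains nor Hmox1 changed past the threshold with TMM scaling and without the replicate number in the fit. A gene was called where the quasi-likelihood test of edgeR gave a Benjamini-Hochberg adjusted p under 0.05 over all tested genes. For LPS against control, 1 of the 10 genes was called higher, against 21.8% of all tested genes, and 1 lower, against 18.6%. Both LPS libraries lay above both control libraries for 4 of the 10 (35.9% of all tested genes) and below for 3 (36.7%). The median log2 fold change was -0.16 over the 10 genes and -0.01 over all tested genes. Among 10 genes each of these counts lies close to or below the share of all tested genes.

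Of the 9 genes with reads in every library, the exporter changed most. Slc40a1 (chromosome 1, 45908068 to 45926523, minus strand) stood at 355 CPM in control replicate 1 and 92.7 in control replicate 3, and at 27.7 and 7.32 in the LPS libraries. Every LPS library lay below every control library, and within each number the drop was nearly the same, -3.67 (replicate 1) and -3.62 (replicate 3) on the log2 scale. The fitted change was -3.68 ± 1.01 (log2, SE), 12.8-fold lower, with an adjusted p of 0.0215. The 2 numbers differed much in level and the fit has no term for them, so that call rested on single libraries. Leaving 1 out sets a group of 1 number against a group of both. Without control replicate 1 the change was -2.47, and without LPS replicate 3 it was -3.01. With the replicate number as a term in edgeR it was -3.67 ± 0.11 (adjusted p = 9.19e-08). The labels do not state that numbers pair the libraries. The sex of the cells went with the number in every group, and the fit without the number counts any such difference as spread.

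LPS had a like effect on the exporter in cells that had seen IL-4. Slc40a1 stood at 179 and 45.4 CPM in IL-4 replicates 1 and 3 and at 16.2 and 4.41 with LPS after IL-4. Compared with IL-4 alone it fell by 3.46 ± 1.03 on the log2 scale (11.0-fold lower, adjusted p = 0.0302), and within numbers the differences were -3.45 and -3.30. In this fit without the replicate number, the call was lost without IL-4 replicate 1 (-2.16). It was also lost without replicate 1 (-4.66) or replicate 3 (-2.79) of IL-4 then LPS. With the number as a term edgeR gave -3.43 ± 0.12 (adjusted p = 1.33e-07). IL-4 by itself gave -1.0 ± 0.89 against control in the fit without the replicate number (adjusted p = 0.867), from within-number differences of -0.99 and -1.03, so the groups overlapped although the level was lower within each number (1.99-fold lower in the fit). Among LPS-treated cells prior IL-4 gave -0.78 ± 1.03 (adjusted p = 0.881), from within-number differences of -0.77 and -0.70. Without the filter on low counts edgeR called both contrasts, at adjusted p of 3.91e-05 and 0.0262. The SE there was 0.19 and 0.22, against 0.89 and 1.03 with the filter. Those p-values therefore do not hold the spread of Slc40a1 between the libraries. That spread takes in the difference between the numbers. With the replicate number as a term, edgeR gave -1.01 ± 0.09 for IL-4 against control (adjusted p = 0.00180). For prior IL-4 among LPS-treated cells it gave -0.76 ± 0.13 (adjusted p = 0.0250).

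By a fixed rule, the 3 protein-coding genes whose log2 CPM tracked Slc40a1 most closely over the 8 libraries, out of 11145, were Cds2 (Pearson r = 0.9952), Tanc2 (0.995) and Slc22a4 (0.9916). Tanc2 went from 78.7 and 39.7 CPM in control replicates 1 and 3 to 21 and 13.4 after LPS. All 3 shared with Slc40a1 both a lower level after LPS and a higher level in replicate 1, and these values are a description with no test.

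The transferrin receptor was highest in the libraries that had received IL-4. With all 8 libraries, TMM scaling, the filter on low counts and no replicate number in the fit, edgeR called it in no treatment contrast. Tfrc (chromosome 16, 32608920 to 32632794, plus strand) stood at 28.9 and 27.1 CPM in control replicates 1 and 3, 20.0 and 14.6 after LPS, 53.9 and 57.5 after IL-4, and 60.1 and 36.1 after IL-4 then LPS. The 4 IL-4-treated libraries all lay above the 4 others. IL-4 against control gave 0.99 ± 0.25 (1.99-fold, unadjusted p = 0.00414, adjusted p = 0.317 in edgeR's quasi-likelihood test), with 0.89 and 1.08 within the numbers. After LPS the difference was 1.47 ± 0.26 (2.77-fold, unadjusted p = 0.000527, adjusted p = 0.144), with 1.58 and 1.29 within the numbers. DESeq2 called the second of these contrasts (1.46, adjusted p = 0.000580) and not the first. Without the filter on low counts edgeR called both, at adjusted p of 0.000236 and 4.89e-09. With the filter and the replicate number as a term it also called both, at adjusted p of 0.0285 and 0.00985.

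LPS against control gave -0.69 ± 0.26 for Tfrc (adjusted p = 0.0654), and both LPS libraries lay below both controls. It passed without the filter on low counts (-0.74, adjusted p = 0.00315) and with library totals in place of TMM (-1.29, 0.00645). With the replicate number as a term in edgeR it passed as well (-0.70, adjusted p = 0.0179). That contrast passed the threshold at adjusted p of 0.0250 and 0.0236 when replicate 1 or replicate 3 of IL-4 then LPS, which are not part of it, was left out of the shared spread. After IL-4 the LPS difference had opposite signs in the numbers, 0.16 in replicate 1 and -0.67 in replicate 3, and the fitted value was -0.21 ± 0.24 (adjusted p = 0.525). Tfrc is also a gene of dividing cells. The summed level of 10 division markers was 578 to 802 CPM in control, 643 to 773 after LPS, 759 to 1157 after IL-4 and 744 to 892 after IL-4 then LPS. By gene, LPS against control called 5 of the 10 division markers lower and 1 higher, with a median log2 fold change of -1.15. IL-4 against control called none by edgeR, with 1 at an unadjusted p under 0.05. The part of division in the Tfrc values was not tested.

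In the fit without the replicate number, edgeR called none of the 10 genes for IL-4 against control in either direction. Of all tested genes it called 0.0572% higher and 0.00817% lower. At an unadjusted p under 0.05 there were 2, Tfrc and Slc11a1, beside 892 of all tested genes, and DESeq2 called 0, beside 105. Both IL-4 libraries lay above both controls for 2 of the 10 (19.4% of all tested genes) and below for 3 (19.2%). For IL-4 then LPS against LPS again none was called by edgeR (0.0490% of all tested genes higher, 0.0163% lower), 3 had an unadjusted p under 0.05 (Tfrc, Slc11a1 and Lcn2), beside 1040 of all tested genes, and DESeq2 called 2, Tfrc and Slc11a1, beside 116. There 1 of the 10 lay above without overlap (16.6% of all tested genes) and 2 below (19.8%). So few genes of any kind passed the IL-4 comparisons in the fit without the replicate number that an empty count says little about the 10. With the number as a term, edgeR called 183 genes higher and 105 lower for IL-4 against control, among them Tfrc (higher) and Slc40a1 (lower). For IL-4 then LPS against LPS it called 132 higher and 149 lower, among them Tfrc (higher), Slc40a1 and Slc11a1 (lower). LPS against control and IL-4 against control use the same control libraries, and each contrast is given by its own values only.

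**Figure D3:**
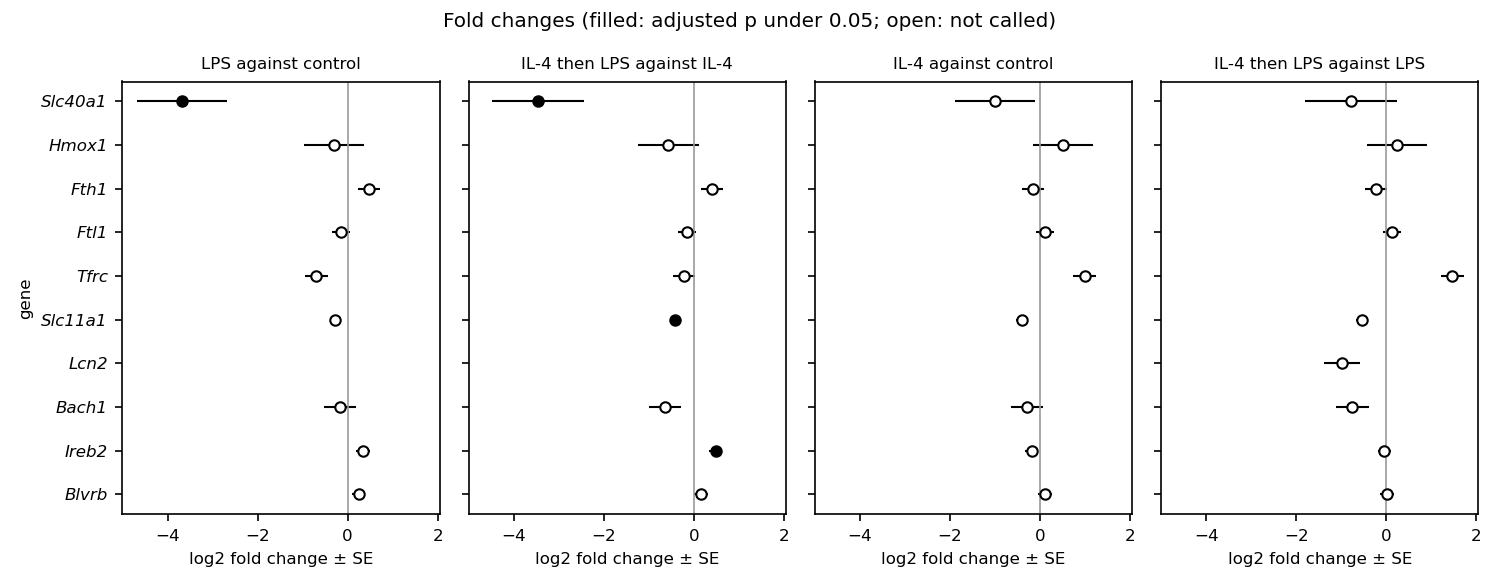
Fitted log2 fold changes with their SE for each gene (rows) in 4 comparisons (panels), filled where the adjusted p was under 0.05 and open elsewhere. Lcn2 is drawn only in IL-4 then LPS against LPS, because the control and IL-4 groups held 3 and 2 of its reads. Slc40a1 is filled at -3.68 and -3.46, and Tfrc lies to the right in both comparisons of IL-4.

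The ferritin genes of iron storage had the highest levels of the 10. Fth1 (chromosome 19, 9982703 to 9985092, plus strand) stood at 17455 and 17537 CPM in control replicates 1 and 3, 21134 and 27425 after LPS, 14337 and 17156 after IL-4, and 17250 and 24355 after IL-4 then LPS. Both LPS libraries exceeded both controls, yet the change of 0.47 ± 0.25 did not pass (adjusted p = 0.166). Scaling by library totals instead of TMM turned that change to -0.14. With the replicate number as a term, edgeR called Fth1 higher for LPS against control (0.45 ± 0.14, adjusted p = 0.0219). That fit also called it for LPS after IL-4 (0.39 ± 0.14, 0.0420). Ftl1 (chromosome 7, 45457944 to 45459884, minus strand) stood at 4603 and 4849 CPM in control, 3903 and 4607 after LPS, 4710 and 5531 after IL-4, and 4093 and 5177 after IL-4 then LPS. Its LPS change was -0.15 ± 0.20 (adjusted p = 0.569) and became -0.76 (adjusted p = 0.00394) with library totals. Scaling matters here because library totals shift the median of all tested genes to -0.62 for LPS against control and to -0.56 for IL-4 then LPS against IL-4. The share of calls that were higher moved from 53.9% to 21.2% and from 52.8% to 22.5%.

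A ratio of the chains within a library does not depend on that choice. Replicates 1 and 3 held 3.79 and 3.62 Fth1 reads per Ftl1 read in control, 5.41 and 5.95 after LPS, 3.04 and 3.10 after IL-4, and 4.21 and 4.70 after IL-4 then LPS. The groups did not overlap and kept the same order in both numbers, from IL-4 (3.07 ± 0.0411, mean ± SD, n = 2) through control (3.70 ± 0.124) and IL-4 then LPS (4.46 ± 0.347) to LPS (5.68 ± 0.381). With 2 libraries against 2 an exact permutation test cannot go below a two-sided p of 0.333, so none was run. The ratio shows unequal change of the chains and not which of them changed. Near-identical copies make ferritin counts uncertain: Ftl1-ps1 held 5253 reads (1.52% of the Ftl1 reads), Ftl2-ps held 125 and Fth-ps2 held 2.

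Ncoa4, the receptor that delivers ferritin to lysosomes for iron release, fell after LPS from 176 and 263 CPM to 64.0 and 93.3 (-1.48 ± 0.29, adjusted p = 0.00469). It fell likewise after IL-4 then LPS against IL-4, by 1.26 ± 0.28 on the log2 scale (adjusted p = 0.00991). Ncoa4 was also lower in replicate 1 than in replicate 3 (-0.50 ± 0.07, adjusted p = 0.00408).

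Hmox1, the enzyme of heme breakdown, differed more between the numbers than between the treatments. Hmox1 (chromosome 8, 75093621 to 75100589, plus strand) stood at 924 and 402 CPM in control replicates 1 and 3, 703 and 374 after LPS, 1378 and 508 after IL-4, and 961 and 315 after IL-4 then LPS. Every group overlapped with every other. No contrast passed in the fit without the replicate number. LPS against control gave -0.30 ± 0.67 (adjusted p = 0.746), and IL-4 against control 0.51 ± 0.67 (0.924). Prior IL-4 gave 0.24 ± 0.67 among LPS-treated cells (0.957), and LPS gave -0.56 ± 0.67 among cells that had seen IL-4 (0.541). Within numbers the last was -0.52 and -0.69, and without the filter on low counts it passed (-0.61, adjusted p = 0.0115). The SE there was 0.20, against 0.67 with the filter, so that p-value does not hold the spread of Hmox1 between the libraries. For IL-4 then LPS against LPS the numbers went opposite ways, 0.45 in replicate 1 and -0.25 in replicate 3.

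Blvrb, the reductase downstream, stood at 174 and 186 CPM in control replicates 1 and 3, 190 and 238 after LPS, 202 and 186 after IL-4, and 222 and 211 after IL-4 then LPS. Its 4 treatment contrasts lay between 0.02 and 0.25 and none passed. The LPS value of 0.25 ± 0.15 (adjusted p = 0.215) turned to -0.36 with library totals. Of the sister enzymes, Hmox2 rose after LPS (0.66 ± 0.18, adjusted p = 0.0233) but was at 0.05 with library totals. It lost the call without control replicate 1 (0.59, adjusted p = 0.135), control replicate 3 (0.64, 0.105) or LPS replicate 3 (0.47, 0.141). Blvra fell (-0.76 ± 0.21, adjusted p = 0.0210), a call lost without control replicate 3 (-0.67, 0.0943) or LPS replicate 1 (-0.59, 0.109).

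Withholding of iron from microbes separated into a secreted and a phagosomal gene. Lcn2 (chromosome 2, 32384633 to 32388252, minus strand) had 0 and 3 reads in control replicates 1 and 3, 313 and 197 after LPS, 0 and 2 after IL-4, and 139 and 122 after IL-4 then LPS. LPS raised it 256-fold over control (95% counting interval 87.1 to 1246, adjusted p = 8.70e-05) and 199-fold after IL-4 (54.6 to 1654, adjusted p = 0.000169). These intervals are exact conditional binomial (Clopper-Pearson) and cover counting error only. The LPS libraries held 43.8 and 27.2 CPM and those of IL-4 then LPS 20.3 and 15.8, a difference of -0.98 ± 0.40 (unadjusted p = 0.0421, adjusted p = 0.558; 0.0185 without the filter). Both libraries with prior IL-4 lay below both without it, by -1.10 and -0.77 within the numbers. Lcn2 is also a neutrophil granule gene. The 11 neutrophil markers summed to 0.865 to 3.46 CPM in control, 3.64 to 8.15 after LPS, 1.52 to 2.18 after IL-4 and 3.35 to 4.80 after IL-4 then LPS, and Ly6g, Elane and Retnlg had no read. Their part in the Lcn2 values was not tested.

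Slc11a1 (chromosome 1, 74375195 to 74386062, plus strand) stood at 487 and 459 CPM in control replicates 1 and 3, 383 and 402 after LPS, 352 and 363 after IL-4, and 259 and 279 after IL-4 then LPS. The 4 groups did not overlap, from control at the top to IL-4 then LPS at the bottom, in both numbers. Its contrasts were -0.27 ± 0.13 for LPS (adjusted p = 0.130), -0.40 ± 0.13 for IL-4 (0.514), -0.55 ± 0.13 for prior IL-4 among LPS-treated cells (0.277) and -0.41 ± 0.13 for LPS among cells that had seen IL-4 (0.0369). Leaving out any 1 of the 8 libraries ended the only one of these calls (-0.47 to -0.35), as did testing without the filter on low counts (adjusted p = 0.0783). With the replicate number as a term, edgeR called LPS (adjusted p = 0.0441), prior IL-4 among LPS-treated cells (0.0283) and LPS after IL-4 (0.00728). That fit did not call IL-4 against control (0.0771). With library totals LPS against control gave -0.87 (adjusted p = 0.000760). DESeq2 called IL-4 then LPS against LPS (-0.55, adjusted p = 0.0483). The summed macrophage markers were 18203 to 24945 CPM in control, 20688 to 23092 after LPS, 12337 to 17204 after IL-4 and 12818 to 17994 after IL-4 then LPS. Most of that sum was Lyz2, 13434 of the 18203 CPM in control replicate 1. By gene, LPS against control called 3 of the 8 markers higher and 1 lower. IL-4 against control called none by edgeR, with a median log2 fold change of -0.51. The part of these markers in the Slc11a1 values was not tested. Slc11a2, the related importer of endosomes, rose after LPS (1.66 ± 0.28, adjusted p = 0.00242).

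Of the regulators, Ireb2 (chromosome 9, 54863789 to 54912530, plus strand) stood at 86.9 and 68.8 CPM in control replicates 1 and 3, 104 and 93.4 after LPS, 71.2 and 66.2 after IL-4, and 99 and 93.4 after IL-4 then LPS. All 4 LPS-treated libraries lay above the 4 others. The change was 0.34 ± 0.15 for LPS against control (adjusted p = 0.0976) and 0.49 ± 0.15 for IL-4 then LPS against IL-4 (adjusted p = 0.0331), but with library totals these were -0.26 and -0.04. The call ended without IL-4 replicate 1 (0.54) or 3 (0.45) and without replicate 1 (0.44) or 3 (0.53) of IL-4 then LPS. It also ended without the filter on low counts (0.44, adjusted p = 0.0705). With the replicate number as a term, edgeR called Ireb2 higher for LPS against control (0.35, adjusted p = 0.0206) and for LPS after IL-4 (0.49, 0.00429). Aco1, which encodes the other iron regulatory protein, fell after LPS from 72.3 and 81.5 CPM to 43.4 and 46.6 (-0.77 ± 0.13, adjusted p = 0.00220).

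Bach1 (chromosome 16, 87698945 to 87733346, plus strand) stood at 181 and 174 CPM in control replicates 1 and 3, 205 and 110 after LPS, 138 and 152 after IL-4, and 125 and 61.6 after IL-4 then LPS. The numbers disagreed about LPS, with 0.18 in replicate 1 and -0.66 in replicate 3, and the fit gave -0.18 ± 0.36 (adjusted p = 0.721). After IL-4 both were lower with LPS, by -0.14 and -1.30, and the fit gave -0.64 ± 0.36 (adjusted p = 0.202). It passed in edgeR with the replicate number as a term (-0.72, adjusted p = 0.0453), with library totals (-1.14, 0.0389) and without the filter on low counts (-0.68, 0.00245). Without replicate 1 of IL-4 then LPS the value was -1.23. IL-4 then LPS against LPS gave -0.75 ± 0.36 (adjusted p = 0.631; 0.0102 without the filter), with -0.71 and -0.83 within the numbers. Nfe2l2, the opposing activator, stood at 343 and 358 CPM in control and 413 and 690 after LPS (0.65 ± 0.33, adjusted p = 0.15). With the replicate number as a term, edgeR called Nfe2l2 higher after LPS (0.59 ± 0.17, adjusted p = 0.0160), as it did without the filter on low counts (0.61, 0.00958).

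For IL-4 then LPS against IL-4 as a whole, 2 of the 10 genes were called higher (Lcn2 and Ireb2), against 20.7% of all tested genes, and 2 lower (Slc40a1 and Slc11a1), against 18.6%. Without overlap 4 of the 10 lay above (34.8% of all tested genes) and 3 below (36.9%). The direct test of whether prior IL-4 altered the LPS response called none of the 10 and, in either direction, 0% of all tested genes in edgeR. None of the 10 had an unadjusted p under 0.05, against 322 of all tested genes, and DESeq2 called 4 genes, none of them among the 10. The LPS responses differed by 0.48 ± 0.36 for Tfrc, -0.46 ± 0.51 for Bach1, 0.22 ± 1.36 for Slc40a1 and -0.27 ± 0.94 for Hmox1, all with an adjusted p of 1.0. The SE for Slc40a1 and Hmox1 in this fit holds the difference between the numbers.

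Checked by number, 2 of the 10 genes differed between replicate 1 and replicate 3 in a contrast chosen after the values were seen. Slc40a1 was higher in replicate 1 by 3.67 to 3.94-fold in the 4 groups (1.94 ± 0.08, adjusted p = 1.05e-05), and Hmox1 by 1.88 to 3.06-fold (1.29 ± 0.11, adjusted p = 0.000588). Of all tested genes 7.41% were called higher in replicate 1 and 5.98% lower, and none of the 10 was called lower by edgeR. Fth1 (-0.28 ± 0.10, adjusted p = 0.0908) and Ftl1 (-0.22 ± 0.08, adjusted p = 0.104) were called lower in replicate 1 by DESeq2, at adjusted p of 0.0492 and 0.0446. For Tfrc and Bach1 the ratio of replicate 1 to replicate 3 differed between the groups: it was 1.07 and 1.04 in control and 0.938 and 0.909 after IL-4, but 1.37 and 1.87 after LPS and 1.67 and 2.03 after IL-4 then LPS.

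Other listed target genes of NRF2 and BACH1 followed Slc40a1 and Hmox1 between the numbers, but the ferritin genes did not. Of 6 listed, 5 were called higher in replicate 1: Gclc (1.5 ± 0.18), Srxn1 (1.09 ± 0.10), Nqo1 (1.05 ± 0.12), Gclm (0.94 ± 0.11) and Txnrd1 (0.45 ± 0.11), enzymes of glutathione synthesis and redox defence. Slc7a11, the cystine importer, gave 0.66 ± 0.23 (adjusted p = 0.0939). Replicate 1 exceeded replicate 3 in all 4 groups for each of the 6, with ratios for Gclc of 1.99 to 4.26. Fth1 and Ftl1, named above among the genes that Bach1 represses, went the other way. Their ratios were 0.708 to 0.995 and 0.791 to 0.949 in the 4 groups, and edgeR did not call them. Nfe2l2 itself was lower in replicate 1 (-0.53 ± 0.12, adjusted p = 0.0231). Of the 10 division markers 8 were also called higher in replicate 1. Sex, animal, culture and any handling that goes with the number cannot be told apart.

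**Figure D4:**
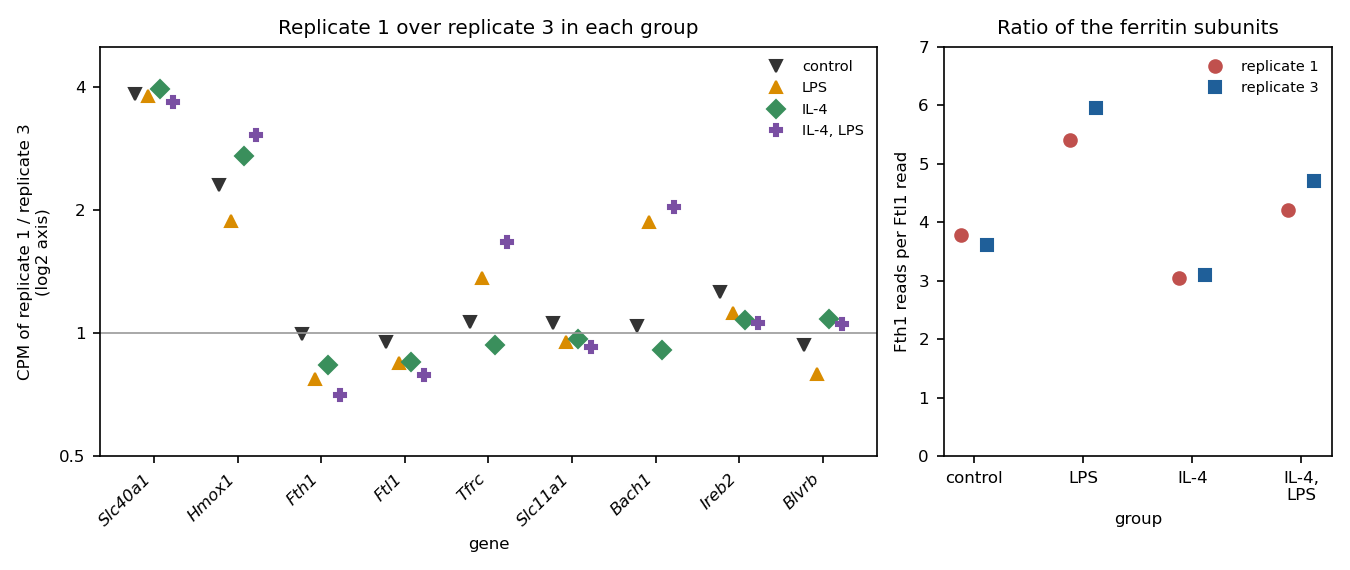
Left, replicate 1 over replicate 3 in CPM for 9 of the genes on a log2 axis, with 1 symbol per group (Lcn2 is left out because its reads in control and IL-4 were 3 or fewer). Right, Fth1 reads per Ftl1 read in each library. Slc40a1 and Hmox1 stand above 1 in all 4 groups, and the ferritin ratio is highest after LPS.

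The wider iron and heme pathway was followed through 60 other listed genes, of which 52 were tested. After LPS 16 rose and 9 fell, beside 21.8% and 18.6% of all tested genes, and the median log2 fold change over the 52 was -0.21. Hepcidin (Hamp), the peptide that triggers ferroportin breakdown, had no read in control and 62 after LPS, at least 31.1-fold higher (floor of 3 reads over the group), and 106 against none after IL-4, at least 53.9-fold higher. Ceruloplasmin (Cp), the ferroxidase that works with ferroportin, rose by 5.25 ± 0.47. Slc39a14, an importer of iron not bound to transferrin, rose by 3.38 ± 0.28, and Mafk, a DNA-binding partner of Bach1 and NRF2, by 3.18 ± 0.14. Among those that fell furthest were the heme exporter Flvcr1 (-2.52 ± 0.31), the endosomal ferrireductase Steap3 (-2.00 ± 0.22) and Ncoa4.

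By role, iron uptake and endosomal transport had 3 higher and 1 lower of 8 tested, and heme uptake, transport and breakdown 1 higher and 3 lower of 8. Of 5 listed genes of export, oxidation and hepcidin only 2 were tested, Cp and Hamp, and both rose. Hamp had no read without LPS, so it passed the filter on low counts only through libraries in which it was high. Regulators of Hmox1 and Slc40a1 had 3 higher and none lower of 6, and the other NRF2 and BACH1 targets 2 higher and none lower of 6. Ferritin release and chaperones, and iron sensing, each had 1 higher and 1 lower, of 3 and 4 tested. Mitochondrial iron, iron-sulfur clusters and heme synthesis had 3 higher and 3 lower of 15. These counts are for LPS against control, where 21.8% of all tested genes were called higher and 18.6% lower, and each role holds few genes.

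After IL-4 then LPS against IL-4, 15 of the 52 rose and 9 fell, beside 20.7% and 18.6% of all tested genes. Cp (5.29 ± 0.51), Slc7a11 (3.21 ± 0.52) and Slc39a14 (3.11 ± 0.28) led the higher genes beside Hamp. Among the lower were the hemoglobin scavenger receptor Cd163 (-2.32 ± 0.62), Flvcr1 (-2.14 ± 0.31) and Steap3 (-1.73 ± 0.22). Cd163 rested on few reads, 25 and 45 against 5 and 4, and its call was lost without IL-4 replicate 3 (-1.80, adjusted p = 0.112), replicate 1 of IL-4 then LPS (-2.57, 0.0650) or its replicate 3 (-2.09, 0.113). The count of lower genes dropped from 9 to 5 without IL-4 replicate 3 and to 5 without replicate 1 of IL-4 then LPS. With library totals in place of TMM, lower calls on the list went from 9 to 27 for LPS against control and from 9 to 23 for IL-4 then LPS against IL-4. None of the 52 was called by edgeR for IL-4 against control (6 at an unadjusted p under 0.05, beside 892 of all tested genes) or for prior IL-4 among LPS-treated cells (7, beside 1040). DESeq2 called 2 in the first of these, 1 in each direction, and 1 in the second. The test of the difference between the LPS responses called none of the 52 in edgeR or DESeq2, with 1 at an unadjusted p under 0.05.

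**Figure D5:**
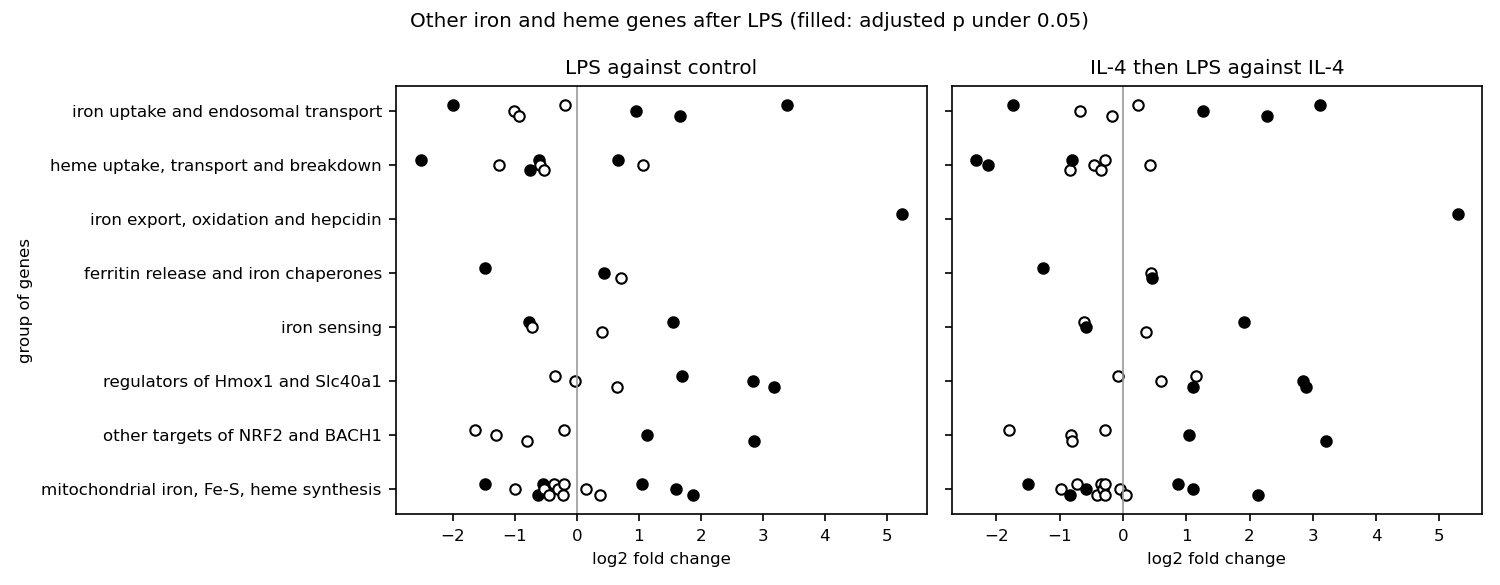
Log2 fold changes of the other tested iron and heme genes by group of genes (rows) after LPS without (left) and with (right) prior IL-4, filled where the adjusted p was under 0.05. Hamp and Steap4, without a read before LPS, are not drawn. Cp lies furthest right at 5.25 and 5.29. Filled points fall on both sides of 0 in some rows and on a single side in others.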

How the data were processed

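RNA was sequenced from 8 libraries, 2 in each of 4 groups. The authors deposited whole-number read counts per gene with gene names, positions and lengths. The mm10 mouse genome, HISAT2, StringTie and HTSeq are named, without versions, per the submitters' processing notes. Strandedness, annotation release and the treatment of reads matching several genes are not given in the sources used here, so overlapping, antisense and near-identical genes could not be told apart. The deposited table holds 6 further count columns, which were not used.

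Counts were filtered with edgeR's filterByExpr by group (edgeR 4.0.16, limma 3.58.1, R 4.3.3), scaled with TMM factors and tested with the quasi-likelihood test, with 1 mean per group, a spread shared by 8 libraries (4 residual and 3.78 prior degrees of freedom) and Benjamini-Hochberg adjustment over 12234 genes. The SE is approximate, the size of the log2 fold change over the root of its F statistic. Within-number differences used a prior count of 2. DESeq2 1.42.0, other scalings, no filter, the replicate number as a term, ferritin copies summed into their parents, and leaving out each library were alternatives. Without the filter the SE came out alike for genes of unlike spread. For LPS after IL-4 it was 0.20 for Hmox1 and Slc11a1 and 0.19 for Bach1 and Ireb2. The p-values without the filter therefore say little about the spread of a single gene. The fits were tested on simulated data that had the same spread for all genes and no difference between the numbers. That test therefore does not cover genes that differ between the numbers, such as Slc40a1 and Hmox1.

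The 10 genes and the lists were chosen with earlier results of these data known. Of the pathway list, the text names up to 4 genes called in each direction with the largest change and the same sign in both numbers, and fixed partner genes of the 10, except 1 gene that is not reported here. The list genes with the NRF2 and BACH1 targets in the comparison of the numbers were named after their values were seen. Without molecular identifiers, intervals and floors cover only counting error.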

Additional observations from a re-analysis of the deposited data

How the results depend on the processing

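Scaling by library totals instead of TMM gave the sign changes among the 10 genes at fixed libraries. For LPS against control they were Fth1 (-0.14), Ireb2 (-0.26) and Blvrb (-0.36). For IL-4 then LPS against IL-4 they were Fth1 (-0.12), Ireb2 (-0.036) and Blvrb (-0.37). Ireb2 was 0.025 for IL-4 then LPS against LPS, Fth1 0.012 for the difference of the LPS responses, and Slc11a1 0.041 and Blvrb 0.019 for replicate 1 against replicate 3. DESeq2 gave -0.68 for Lcn2 between the numbers. The cause was not tested beyond the shift of the scale.

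Counts of the 10 genes called moved as follows. With the replicate block, 3 were higher and 3 lower for LPS against control, 1 and 1 for IL-4 against control, 1 and 2 for IL-4 then LPS against LPS, and 3 higher and 4 lower for IL-4 then LPS against IL-4. In that fit Slc40a1 was at -3.67 ± 0.11 for LPS against control (adjusted p = 9.19e-08), -1.01 ± 0.09 for IL-4 against control (0.00180) and -0.76 for prior IL-4 among LPS-treated cells (0.0250). Tfrc was called for IL-4 without and with LPS (adjusted p of 0.0285 and 0.00985) and for LPS against control (0.0179), and Hmox1 for LPS after IL-4 (-0.60, 0.0114). The difference of the LPS responses was 0.25 ± 0.17 for Slc40a1 and -0.36 ± 0.22 for Hmox1, neither called. Labels do not state that numbers pair the libraries, and the correlation of same-number deviations ran from 0.343 to 0.524 over 6 pairs of groups. With library totals, 4 were lower for LPS against control, and 1 higher and 4 lower for IL-4 then LPS against IL-4. Without the filter on low counts, 2 were lower for LPS, 1 higher and 1 lower for IL-4, 1 higher and 3 lower for IL-4 then LPS against LPS, 1 higher against IL-4, and 2 lower between the numbers. DESeq2 called 1 higher and 1 lower for IL-4 then LPS against LPS and 2 lower between the numbers. Of the pathway list, lower calls for LPS became 18 with the block, 27 with library totals and 15 without the filter, and for IL-4 then LPS against IL-4 18, 23 and 15. For IL-4 against control, block, DESeq2 and no filter each gave 1 higher and 1 lower. For IL-4 then LPS against LPS the block gave 2 higher and 1 lower, no filter 2 and 2, and DESeq2 1 higher. Over all tested genes, IL-4 against control had 7 higher and 1 lower, 183 and 105 with the block, 60 and 45 by DESeq2 and 198 and 162 without the filter. Prior IL-4 among LPS-treated cells had 6 and 2, against 132 and 149, 60 and 56, and 172 and 225. Library totals moved LPS against control from 2663 and 2279 to 1547 and 5745, LPS after IL-4 from 2537 and 2271 to 1546 and 5321, and lower calls in replicate 1 from 731 to 442 (1192 without the filter). The difference of the LPS responses had no calls, 1 lower with the block, 3 higher and 1 lower by DESeq2, and 16 and 37 without the filter.

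Leaving out each library in turn gave these ranges where a sign or count moved. These fits have no term for the replicate number, so a group left with 1 library holds 1 number and meets groups that hold both. The ranges of Slc40a1 and Hmox1 therefore take in the difference between the numbers. LPS against control: Bach1 -0.70 to 0.20, Hmox1 -0.82 to 0.36, genes lower 0 to 2. IL-4 against control: Hmox1 -0.40 to 1.18, Slc40a1 -2.32 to 0.23, Ftl1 -0.047 to 0.20. IL-4 then LPS against LPS: Hmox1 -0.78 to 0.84, Slc40a1 -1.98 to 0.48, Fth1 -0.49 to 0.0055, Ftl1 -0.054 to 0.28, Blvrb -0.14 to 0.19, Ireb2 -0.12 to 0.044. IL-4 then LPS against IL-4: Hmox1 -1.58 to 0.33, Tfrc -0.63 to 0.11, Ftl1 -0.32 to 0.016, genes higher 1 to 2, genes lower 0 to 1, pathway genes lower 5 to 11. Difference of the LPS responses: Slc40a1 -0.99 to 1.57, Hmox1 -1.28 to 0.68, Bach1 -1.06 to 0.061, Blvrb -0.25 to 0.083, Fth1 -0.34 to 0.16, Ftl1 -0.17 to 0.20. Between the numbers: Blvrb -0.13 to 0.029, all genes higher 407 to 547 and lower 304 to 479. Lower calls over all genes ran from 1397 to 2230 for LPS against control and from 1315 to 2294 for LPS after IL-4. A group left with 1 library was assumed to vary like the others. Over 79 contrasts of single genes, 29 changed sign and 27 gained or lost a call in some alternative. Depth limits Lcn2, Hamp and Cd163, which held few reads before LPS or in all groups.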
